A study of Homo sapiens with 10 samples.

Results

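The 9 genes described here belong to the NRF2 antioxidant system: NFE2L2, which encodes the transcription factor NRF2, its inhibitor KEAP1, and the enzyme genes HMOX1, NQO1, GCLC, GCLM, TXNRD1, SRXN1 and TALDO1. They were chosen by symbol, as 9 of the 26256 genes in the count table of the untreated cells and 9 of the 55736 genes in the count table of the Nutlin-3a experiment. All 9 passed the filter on low counts in both tables, among 14376 and 13529 genes tested. MCF10A is a human breast epithelial line that is not transformed. G12V cells are MCF10A cells that received the HRas oncogene with the G12V change by lentiviral transduction, together with a GFP vector, and were then selected with hygromycin, a treatment that the sources used here do not give for MCF10A. Poly(A)-selected RNA was sequenced from 2 replicates each of MCF10A and G12V cells, and from 3 replicates each of MCF10A cells given 10 µM Nutlin-3a or its vehicle DMSO for 4 h. Cells of every group grew in medium with cholera toxin, epidermal growth factor, insulin, hydrocortisone and horse serum. Nutlin-3a blocks the binding of MDM2 to p53 and so stabilizes p53.

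NRF2 is controlled mainly as a protein. KEAP1 holds it in the cytoplasm and presents it to a CUL3 ubiquitin ligase, and electrophiles or oxidants that modify KEAP1 let NRF2 accumulate, pair with a small MAF protein and bind antioxidant response elements near its target genes. The targets make glutathione, reduce thioredoxin and peroxiredoxins, reduce quinones, break down heme and supply NADPH. Transcript counts give the levels of these transcripts and do not measure the amount of NRF2 protein or its binding.

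The deposited counts added up to 21538593 to 23683975 per library in the untreated table and to 15453226 to 17378734 in the other. HRAS, which checks the G12V label, rose from 69.3 ± 4.77 to 573 ± 82.0 CPM (mean ± SD, n = 2 each; CPM are read counts over the library total scaled by edgeR's TMM factor), with introduced and endogenous transcripts counted together. After Nutlin-3a the p53 targets MDM2 and CDKN1A rose, with log2 fold changes of 2.54 (adjusted p = 0.00133 by the quasi-likelihood test of edgeR, called the QL test in what follows) and 2.16 (adjusted p = 5.16e-04). Of 7 breast epithelial markers, 7 reached a mean of 1 CPM in MCF10A, DMSO and Nutlin-3a, but 4 in G12V cells, where KRT14, KRT17 and CDH1 averaged under 1 CPM. Their summed level was 6736 to 8202 CPM in MCF10A and 1363 to 1662 CPM in G12V cells. This shift moved with every difference described between these groups, and its part in them was not tested. Of 5 leukocyte markers 1 (CD14) reached that mean in each group and of 5 fibroblast markers 1 (COL1A1). Of the endothelial markers 2 of 4 (PECAM1 and KDR) did so in both untreated groups and 0 of 3 in DMSO and Nutlin-3a. The replicates are described as biological, without saying whether they were separate cultures, so p-values measure the spread between these libraries. In bulk RNA, fewer cells that express a gene and less of its RNA per cell cannot be told apart.

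Promoter sequence is shown for GCLM, TXNRD1 and NQO1, which rose in G12V cells, to set windows with and without the core letters of an antioxidant response element side by side. The windows are from RefSeq on GRCh38.p14 and run 5′ to 3′ along the gene from 250 bases before the start to 50 after it. Capitals mark matches to TGACNNNGC or, on the other strand, GCNNNGTCA. Where the open letters are TCA in TGACNNNGC, or TGA in GCNNNGTCA, a match also holds an AP-1 site. None of the matches printed here has these letters. GCLM lies at chr1:93909381-93909680 on the minus strand, the TXNRD1 windows at chr12:104215529-104215828 and chr12:104286782-104287081 on the plus strand, and NQO1 at chr16:69726511-69726810 on the minus strand.
GCLM: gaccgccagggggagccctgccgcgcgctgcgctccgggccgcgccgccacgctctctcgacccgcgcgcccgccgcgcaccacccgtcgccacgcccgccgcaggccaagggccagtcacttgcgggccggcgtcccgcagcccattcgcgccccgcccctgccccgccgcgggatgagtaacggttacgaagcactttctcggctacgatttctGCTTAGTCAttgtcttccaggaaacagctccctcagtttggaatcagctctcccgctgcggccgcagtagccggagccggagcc
TXNRD1, upstream start: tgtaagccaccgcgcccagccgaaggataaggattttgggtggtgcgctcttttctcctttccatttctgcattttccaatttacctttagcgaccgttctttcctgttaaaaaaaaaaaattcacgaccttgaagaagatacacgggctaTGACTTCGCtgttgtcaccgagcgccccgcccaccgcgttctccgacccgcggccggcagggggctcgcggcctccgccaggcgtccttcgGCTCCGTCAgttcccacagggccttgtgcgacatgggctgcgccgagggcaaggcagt
TXNRD1, downstream start: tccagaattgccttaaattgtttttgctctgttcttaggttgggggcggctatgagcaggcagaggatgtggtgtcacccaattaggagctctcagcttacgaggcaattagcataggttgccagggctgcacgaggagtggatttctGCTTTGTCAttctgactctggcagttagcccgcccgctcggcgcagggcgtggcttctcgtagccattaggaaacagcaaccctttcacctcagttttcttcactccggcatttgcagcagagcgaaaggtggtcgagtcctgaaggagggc
NQO1: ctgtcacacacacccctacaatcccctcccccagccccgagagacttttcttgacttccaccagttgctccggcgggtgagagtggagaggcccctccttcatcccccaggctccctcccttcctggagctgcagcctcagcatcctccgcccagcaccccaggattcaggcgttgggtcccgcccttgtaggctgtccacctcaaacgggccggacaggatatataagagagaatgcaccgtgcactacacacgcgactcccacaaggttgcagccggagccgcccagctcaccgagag

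The match in the GCLM window, GCTTAGTCA, starts 34 bases before the start site. The upstream TXNRD1 window has matches starting 99 and 8 bases before it, the first on the strand of the gene and the second on the other strand, and the downstream window has 1 starting 102 bases before it. The NQO1 window has none, which says only that these letters are not in this stretch. Windows of 8 members were found (none for HMOX1), and 3 of the 8 genes (37.5%) held a match in at least 1 window, namely KEAP1, GCLM and TXNRD1. Of all 27305 genes with a window 16.1% held one, of 48 pathway genes 35.4%, and of all 35116 windows 13.3%. In KEAP1, whose product restrains NRF2, the matches start 54 and 31 bases before the start. The windows of NFE2L2, GCLC, SRXN1 and TALDO1 held none.

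The comparison of G12V cells with MCF10A asks what differed between the cells before and after HRas transformation. TXNRD1 and HMOX1 rose most among the 9 genes, by 2.42 and 2.38 on the log2 scale, and NQO1 and GCLM rose by 1.19 and 1.22. The genes of the sensor itself, NFE2L2 and KEAP1, did not pass the test, and neither did GCLC, SRXN1 and TALDO1. In all, 4 of 9 members passed (adjusted p under 0.05 and absolute log2 fold change above 0.5, edgeR's QL test), all of them higher. Of all genes tested 5.01% were called higher and 5.95% lower. The median log2 fold change of the 9 was 0.84, against -0.0011 over all genes tested. In 8 of 9 members the libraries of MCF10A and G12V cells did not overlap, as in 54.8% of all genes.

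The count of 4 varied with the libraries fitted. A fit without 1 library leaves a group of 1, so its spread comes from the 2 libraries of the other group alone, and the lone library is assumed to vary like them. Without MCF10A replicate 1, none of the 9 members and none of 14883 genes in all was called by the QL test, although 7 members and 2830 genes had an unadjusted p under 0.05. Fewer members, and fewer of all genes, were called without MCF10A replicate 2 or without G12V replicate 2. Without MCF10A replicate 2, NQO1 and GCLM were not called and had log2 fold changes of 1.24 and 0.99. Without G12V replicate 2, NQO1 was not called and had 1.03. The log2 fold changes of the 4 genes stayed positive without any single library, and TXNRD1 had 2.49 without MCF10A replicate 1 (adjusted p = 0.0960).

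**Figure D1:**
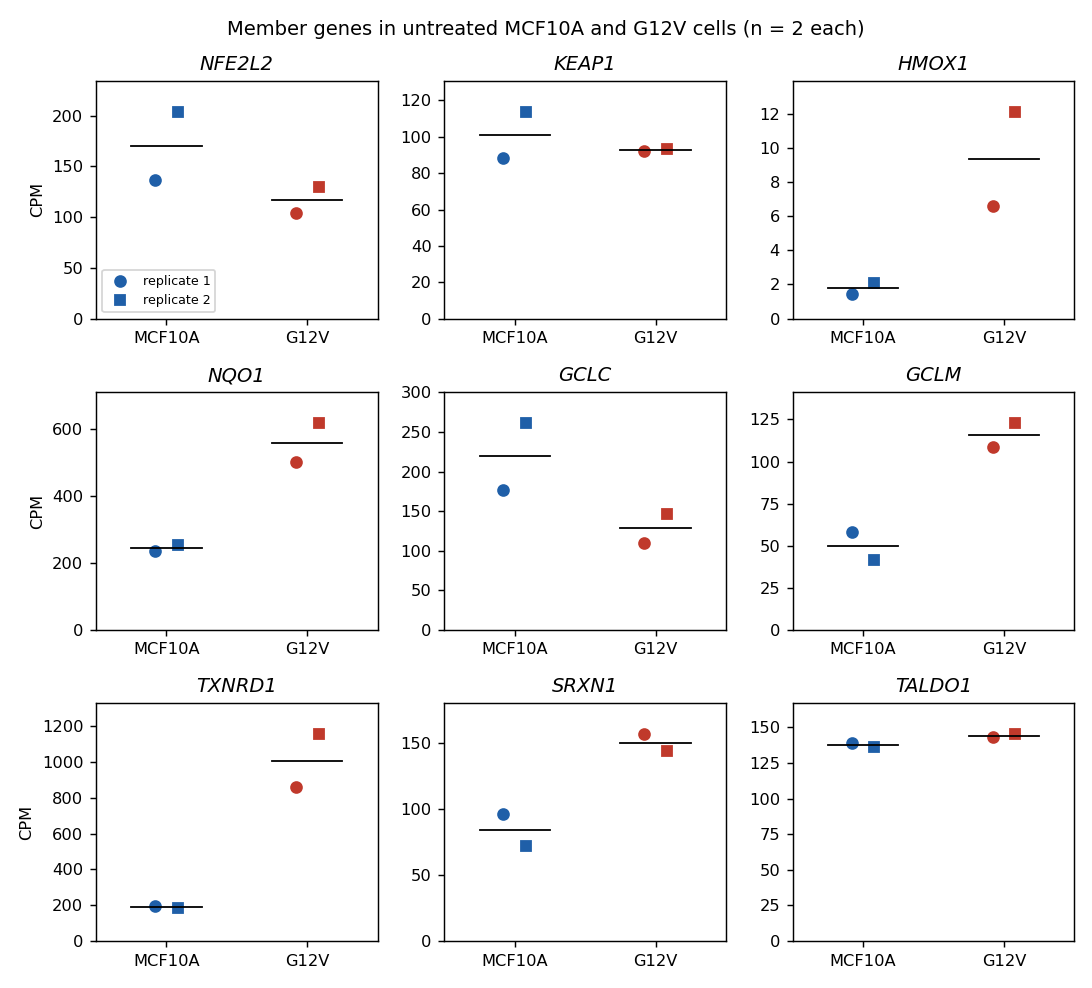
Level of each of the 9 genes in CPM (y axis, from 0) in MCF10A (blue) and G12V cells (red), with 2 libraries per group drawn as a circle (replicate 1) and a square (replicate 2) and the mean as a black line. Both G12V libraries lie above both MCF10A libraries for HMOX1, NQO1, GCLM, TXNRD1, SRXN1 and TALDO1, and below them for NFE2L2 and GCLC.

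NFE2L2 lies on chromosome 2 from 178095031 to 178129859 (minus strand; hg19, as are all gene positions here). Its level was 137 and 204 CPM in MCF10A replicates 1 and 2 and 104 and 130 CPM in G12V replicates 1 and 2. Both G12V libraries were below both MCF10A libraries, but the MCF10A libraries were further apart from each other than the groups were at their nearest. The log2 fold change was -0.54 (95% interval -1.17 to 0.078, adjusted p = 0.253 in edgeR's QL test). KEAP1, on chromosome 19 from 10596796 to 10614054, had 88.1 and 114 CPM in MCF10A and 92.3 and 93.4 CPM in G12V cells. These groups overlapped, with a log2 fold change of -0.12 (95% interval -0.59 to 0.36, adjusted p = 0.778). The interval of NFE2L2 reaches below a log2 fold change of -1, and those of both genes end below the rise of NQO1 or GCLM.

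HMOX1 encodes heme oxygenase 1, which opens the heme ring and releases iron, carbon monoxide and biliverdin. The gene is on chromosome 22 from 35777060 to 35790207. It had 1.45 and 2.11 CPM in MCF10A, from 32 and 48 counts, and 6.58 and 12.1 CPM in G12V cells, from 154 and 271 counts. G12V libraries were all above MCF10A libraries, although HMOX1 was the least abundant of the 9 genes in both. The log2 fold change was 2.38 (SE 0.44, 95% interval 1.304 to 3.461, adjusted p = 0.0236 in edgeR's QL test).

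NQO1, on chromosome 16 from 69743304 to 69760571, encodes the quinone reductase that carries quinones to hydroquinones in a single step. Its levels were 237 and 255 CPM in MCF10A and 502 and 619 CPM in G12V cells, well separated. The mean went from 246 ± 12.8 to 560 ± 82.5 CPM (SD, n = 2 each), or 1.19 on the log2 scale (SE 0.22, adjusted p = 0.0230 in edgeR's QL test).

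GCLC and GCLM encode the catalytic and the modifier subunit of glutamate-cysteine ligase, which makes the first and rate-limiting step of glutathione synthesis. The subunit genes had opposite signs. GCLM, on chromosome 1 from 94350756 to 94375154, had 58.2 and 41.3 CPM in MCF10A and 108 and 123 CPM in G12V cells. It rose by 1.22 on the log2 scale (SE 0.23, 95% interval 0.67 to 1.77, adjusted p = 0.0236 in edgeR's QL test). GCLC, on chromosome 6 from 53362140 to 53409927, had 177 and 261 CPM in MCF10A and 110 and 146 CPM in G12V cells. Both G12V libraries were below both MCF10A libraries, with a log2 fold change of -0.78 (SE 0.26, 95% interval -1.42 to -0.13), but its adjusted p of 0.130 did not pass. The difference between the GCLM and GCLC changes was not tested.

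TXNRD1 encodes the cytosolic thioredoxin reductase, a selenoprotein that uses NADPH to keep thioredoxin reduced. It lies on chromosome 12 from 104609557 to 104744085. Its levels were 194 and 182 CPM in MCF10A and 860 and 1156 CPM in G12V cells. The MCF10A libraries were close together and far below both G12V libraries, with a log2 fold change of 2.42 (SE 0.26, 95% interval 1.79 to 3.05, adjusted p = 0.00484 in edgeR's QL test). EID3 overlaps TXNRD1 on the same strand, but had only 5 to 16 counts per library.

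SRXN1 encodes sulfiredoxin, which restores peroxiredoxins whose active cysteine has been overoxidized. The gene is on chromosome 20 from 627268 to 634014, and its levels were 96.1 and 72.1 CPM in MCF10A and 157 and 144 CPM in G12V cells. The groups did not overlap, and the log2 fold change was 0.84 (SE 0.21, 95% interval 0.33 to 1.35), with an adjusted p of 0.0562 in edgeR's QL test. SRXN1 was called by DESeq2 (adjusted p = 0.0147) and by edgeR's exact test (adjusted p = 0.0104).

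TALDO1 encodes transaldolase of the non-oxidative pentose phosphate pathway, the branch that returns sugars to the NADPH-producing steps. It lies on chromosome 11 from 747432 to 765024. The libraries of TALDO1 were the most alike of all 9 genes, at 139 and 136 CPM in MCF10A and 143 and 145 CPM in G12V cells. The log2 fold change was 0.07 (95% interval -0.34 to 0.48, adjusted p = 0.865 in edgeR's QL test), so a change larger than 0.48 in either direction lies outside the interval.

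Per kilobase of the canonical GENCODE transcript, TALDO1 had the highest level of the 9 in MCF10A, at 115 ± 1.78 CPM per kb (SD, n = 2), followed by NQO1 at 97.4 ± 5.06. Next came NFE2L2 (69.6 ± 19.3), GCLC (57.9 ± 15.7) and TXNRD1 (48.8 ± 2.27), each overlapping its neighbour in the order. KEAP1 (39.3 ± 7.03) and SRXN1 (33.3 ± 6.73) also overlapped, and GCLM (10.2 ± 2.44) and HMOX1 (1.15 ± 0.30) were lowest. In G12V cells TXNRD1 (261 ± 54.2) and NQO1 (222 ± 32.7) stood at the top and overlapped each other, above TALDO1 (120 ± 1.25), SRXN1 (59.5 ± 3.57) and NFE2L2 (47.7 ± 7.57). KEAP1 (36.2 ± 0.31) and GCLC (33.8 ± 6.70) overlapped there, and GCLM (23.7 ± 2.07) and HMOX1 (6.01 ± 2.50) were again lowest. Thus TXNRD1 went from the fifth to the first place and GCLC from the fourth to the seventh, with 1 transcript length per gene used in both groups.

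**Figure D2:**
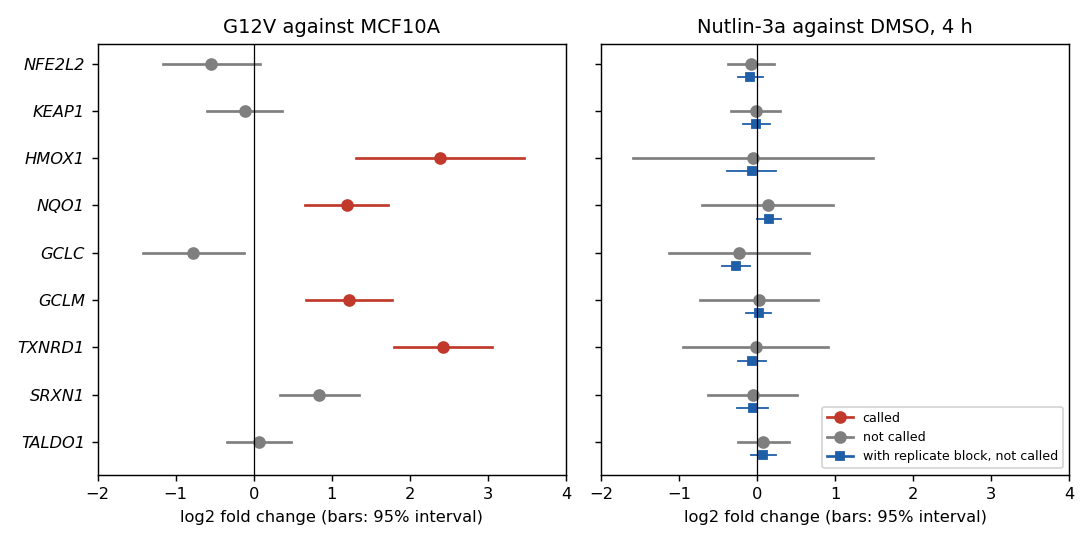
Log2 fold change of each gene (x axis) with its 95% interval, for G12V against MCF10A (left, n = 2 each) and Nutlin-3a against DMSO (right, n = 3 each), red where called and grey where not, with the fit that pairs libraries of one number in blue squares. On the left 4 genes are called and higher, led by TXNRD1 at 2.42 and HMOX1 at 2.38, while on the right no gene is called in either fit.

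A list of 64 further genes of the pathway, without the 9 members, was read in the same comparison. It was written with earlier results of these data known, as was the set of other antioxidant enzymes below. The counts therefore only describe these lists. Of 60 that could be tested, 15 rose, 2 fell and 43 did not pass, so that 25.0% were called higher and 3.33% lower, beside the shares of all genes given above. The median log2 fold change of the list was 0.63, and 34 genes had an unadjusted p under 0.05. As over all genes, none of the list was called without MCF10A replicate 1. Leaving out any other single library kept calls both in the list and over all genes. Among 12 tested antioxidant enzymes that were not listed as NRF2 targets, 0 were called by the QL test and 2 each by DESeq2 and the exact test, which called 16.0% and 17.6% of all genes. Of these 12, 3 had an unadjusted p under 0.05 in the QL test, as had 25.6% of all genes, and the median log2 fold change of the 12 was 0.06. SOD2, the mitochondrial superoxide dismutase, had 147 and 557 CPM in MCF10A and 863 and 1932 CPM in G12V cells and did not pass (log2 fold change 1.99, adjusted p = 0.136 in edgeR's QL test). GPX3, a secreted glutathione peroxidase, had 1.27 and 2.55 CPM against 7.05 and 5.04 CPM and did not pass either (1.66, adjusted p = 0.0729). Others were lower and did not pass. PRDX5 had 158 and 212 CPM against 96.2 and 139 CPM (-0.65, adjusted p = 0.186 in the QL test). GPX4 had 172 and 324 CPM against 116 and 161 CPM (-0.84, adjusted p = 0.198). Of the 12, 9 had a log2 fold change above 0 and 3 below.

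Among genes of glutathione synthesis and use, 4 of 12 rose and 1 fell. GLRX, which encodes the glutaredoxin that removes glutathione from protein cysteines, had 14.0 and 17.8 CPM in MCF10A and 86.9 and 166 CPM in G12V cells, 2.99 apart on the log2 scale (adjusted p = 0.00641 in edgeR's QL test). ABCC2, an exporter of glutathione conjugates, went from 24.3 and 37.2 to 185 and 230 CPM, by 2.75 (adjusted p = 0.00395). The other called members, GSR and ABCC4, rose by 1.20 and 1.01. GSTP1, a glutathione transferase, fell by 1.60, from 959 and 1162 to 333 and 367 CPM (adjusted p = 0.0120). Rises and a fall thus stood side by side within the glutathione genes, as GCLM and GCLC had opposite signs.

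Of 14 genes of quinone, carbonyl and xenobiotic metabolism, 4 rose and 0 fell. Aldo-keto reductases led. AKR1C1 went from 17.5 and 51.2 CPM to 157 and 459 CPM (log2 fold change 3.16, adjusted p = 0.0399 in edgeR's QL test), AKR1C2 from 55.5 and 111 to 365 and 755 CPM (2.75, adjusted p = 0.0203), and AKR1B1 from 187 and 238 to 761 and 1261 CPM (2.25, adjusted p = 0.0112). For all of these replicate 2 was the higher library in both groups. The log2 fold change of AKR1C1 was 4.13 without MCF10A replicate 2 and 2.19 without G12V replicate 2, and that of AKR1C2 3.33 and 2.13. AKR1C genes are near-identical copies, and the counting may have split their reads, so the share of each is uncertain. UGDH was the remaining called gene, at 1.23. ALDH3A1, an aldehyde dehydrogenase, had 98.8 and 341 CPM in MCF10A and 60.2 and 51.1 CPM in G12V cells and did not pass (log2 fold change -1.98, adjusted p = 0.0776).

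FTL, the ferritin light chain that stores iron, was the only called gene of 7 in heme and iron handling. It had 323 and 481 CPM in MCF10A and 1701 and 3237 CPM in G12V cells (log2 fold change 2.62, adjusted p = 0.0150 in edgeR's QL test). Ferritin genes have processed pseudogenes that can share reads. Among the genes of NADPH supply, ME1, the cytosolic malic enzyme, had 56.0 and 43.2 CPM in MCF10A and 108 and 162 CPM in G12V cells and rose by 1.44 on the log2 scale (adjusted p = 0.0227 in edgeR's QL test). Of the other listed targets 3 of 7 rose: SLC6A6, the taurine transporter, from 76.7 and 65.3 to 253 and 400 CPM (2.20, adjusted p = 0.00772), OSGIN1, from 2.91 and 3.57 to 13.5 and 13.7 CPM (2.07, adjusted p = 0.0101), and TRIM16L (1.86).

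Of 11 regulators 1 rose and 1 fell, both small MAF genes, whose products pair with NRF2 on DNA. MAFG went from 43.5 and 49.3 to 102 and 103 CPM (log2 fold change 1.14, adjusted p = 0.0128 in edgeR's QL test), and MAFF from 64.4 and 77.9 to 34.7 and 35.2 CPM (-1.03, adjusted p = 0.0236). SQSTM1, the autophagy receptor that binds KEAP1, had 352 and 612 CPM in MCF10A and 1063 and 1555 CPM in G12V cells and did not pass (1.44, adjusted p = 0.0589). None of 4 thioredoxin and peroxiredoxin genes was called or had an unadjusted p under 0.05.

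**Figure D3:**
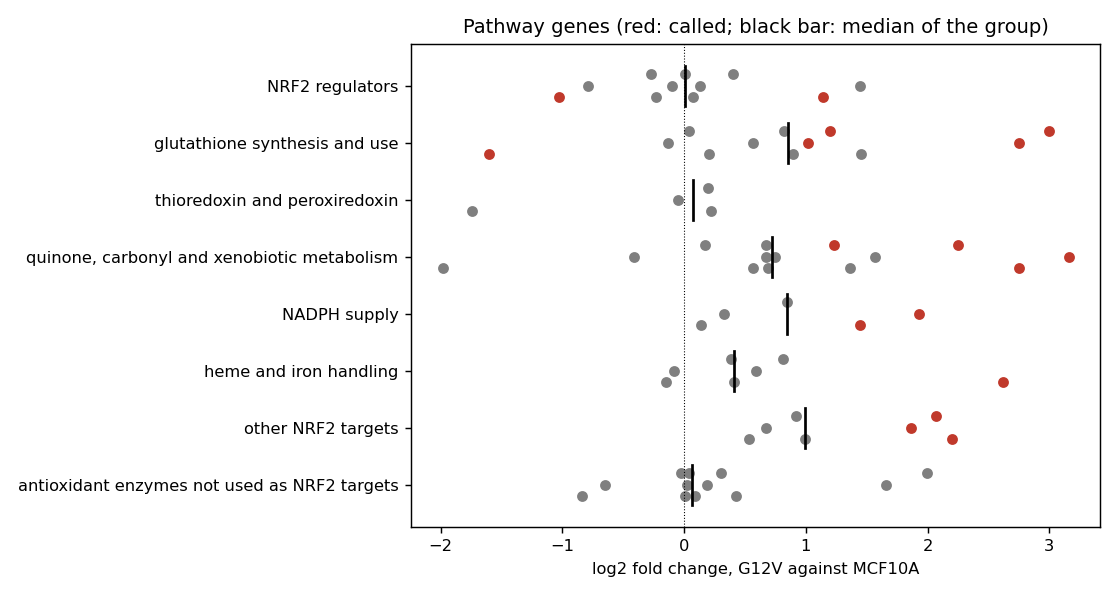
Log2 fold change in G12V against MCF10A (x axis) of each tested gene of the pathway list and of 12 antioxidant enzymes not listed as NRF2 targets, in rows by function, with called genes in red, the others in grey and the median of each row as a black bar. Called genes lie to the right of 0 in every row that has any, apart from GSTP1 and MAFF.

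Nutlin-3a was compared with DMSO to read the response of MCF10A cells to stabilized p53. None of the 9 members was called after 4 h by the QL test, DESeq2 or edgeR's exact test, and none had an unadjusted p under 0.05 in any of these. Of all genes tested 0.170% (23 genes) were called. The log2 fold changes of the 9 ran from -0.23 to 0.14, and the groups overlapped in every member. Groups did not overlap in 8.07% of all genes. Of the pathway list 0 of 58 were called or had an unadjusted p under 0.05 in edgeR's QL test, DESeq2 and edgeR's exact test, with log2 fold changes from -0.21 (TRIM16) to 0.41 (ALDH3A1), and 0 of 12 other antioxidant enzymes were called.

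In the labels the libraries of both treatments carry the numbers 1 to 3, and libraries of one number deviated together, so each treated library can be read against its own control. With the number as a block, 1.22% of all genes were called, and again 0 of the 9 members. NQO1 and GCLC then had an unadjusted p under 0.05, as had 11.7% of all genes. GCLC went from 159, 134 and 69.1 CPM in DMSO replicates 1 to 3 to 140, 118 and 51.1 CPM in Nutlin-3a replicates 1 to 3. Its blocked log2 fold change was -0.27 (95% interval -0.44 to -0.089, adjusted p = 0.156 in edgeR's QL test). NQO1 went from 919, 536 and 368 CPM to 959, 619 and 425 CPM, with a blocked log2 fold change of 0.16 (95% interval 0.0036 to 0.31, adjusted p = 0.412).

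The other members moved less. NFE2L2 had 174, 196 and 169 CPM in DMSO and 160, 197 and 152 CPM in Nutlin-3a, with a blocked log2 fold change of -0.09 (95% interval -0.25 to 0.073). KEAP1 had 130, 108 and 94.6 CPM against 116, 116 and 97.2 CPM (-0.01, 95% interval -0.19 to 0.16). For both genes of the sensor the interval thus lay within 0.25 of no change.

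TXNRD1 had 967, 932 and 436 CPM in DMSO and 970, 977 and 363 CPM in Nutlin-3a, with a blocked log2 fold change of -0.06 (95% interval -0.24 to 0.11). GCLM had 247, 189 and 113 CPM against 243, 203 and 112 CPM (0.02, 95% interval -0.14 to 0.18). HMOX1 had 11.7, 5.89 and 2.28 CPM against 11.8, 5.39 and 2.04 CPM (-0.07, 95% interval -0.39 to 0.25). For HMOX1 and GCLM each library was nearest to the library of its own number, while for TXNRD1 replicates 1 and 2 of both treatments lay together and replicate 3 was lower.

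SRXN1 had 34.0, 30.4 and 19.8 CPM in DMSO and 30.9, 31.2 and 18.9 CPM in Nutlin-3a, with a blocked log2 fold change of -0.06 (95% interval -0.26 to 0.15). TALDO1 had 228, 188 and 167 CPM against 225, 209 and 181 CPM (0.08, 95% interval -0.076 to 0.24). Adjusted p over the 9 members ran from 0.156 to 0.976 with the block.

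In this table the row of NFE2L2 extends to 178257425 and overlaps AGPS on the opposite strand (1849 to 2294 counts per library). That of GCLC lies at 53387262 to 53481768, unlike its span in the untreated table, and overlaps RP1-27K12.2 on the same strand (56 to 164 counts). TXNRD1 overlaps RPL18AP3 on the same strand (96 to 156 counts). How such reads were assigned is not given in the sources used here.

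**Figure D4:**
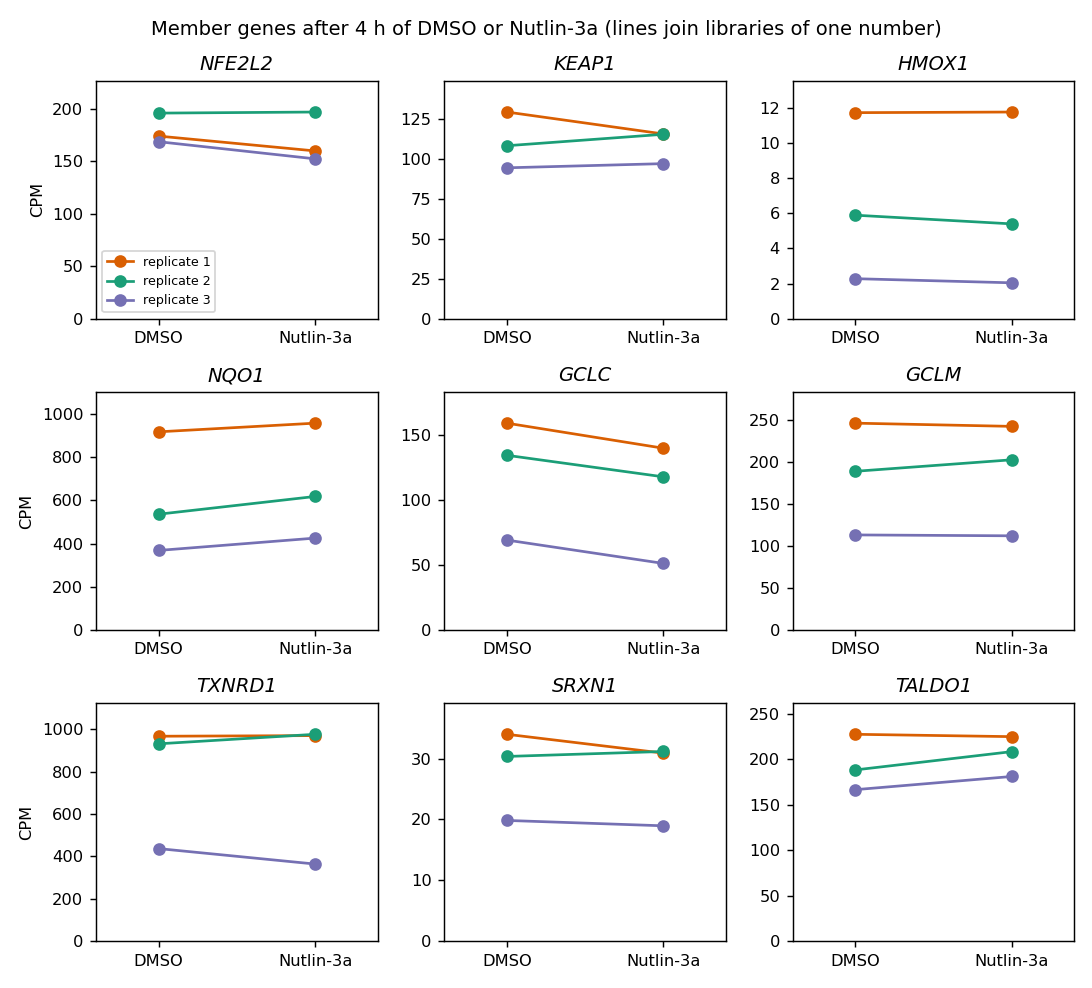
Level of each gene in CPM (y axis, from 0) in DMSO and Nutlin-3a libraries, with a line joining the libraries of one number (orange 1, green 2, purple 3). The lines for HMOX1 and GCLM are nearly flat and far apart, those of numbers 1 and 2 lie together for TXNRD1, and all 3 fall slightly for GCLC.

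The libraries of one treatment differed more than the treatments did. Among the DMSO libraries HMOX1 ranged 4.41-fold, NQO1 2.49-fold, GCLC 2.29-fold, TXNRD1 2.22-fold and GCLM 2.17-fold. In Nutlin-3a the same genes ranged 4.83-fold, 2.25-fold, 2.72-fold, 2.69-fold and 2.16-fold. By the range of log2(CPM + 0.5) in DMSO, only 0.355% of all tested genes had a larger range than HMOX1, 2.13% than NQO1, 2.82% than GCLC, 3.27% than TXNRD1 and 3.53% than GCLM. SRXN1 (10.7%), KEAP1 (31.8%), TALDO1 (32.2%) and NFE2L2 (69.9%) were less unusual. The median log2 range over the 9 was 1.12 in DMSO and 1.11 in Nutlin-3a, against 0.54 and 0.55 for the pathway list and 0.32 and 0.37 for all tested genes.

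The order was shared. Replicate 3 was lowest in both treatments for all 9 genes, a count whose share over all tested genes was not computed. Of the 9 genes, 6 (66.7%) were highest in replicate 1 and lowest in replicate 3 of both. Of the pathway list 28 of 58 (48.3%) had this order, and of all tested genes 1346 (9.95%). The median absolute difference between libraries of one number was 0.12 on the log2 scale for the 9 genes and 0.15 for all. No label gives a date, batch or density that would set these numbers apart. Other transcripts also differed in DMSO replicates 1 to 3: KRT17 had 154, 124 and 444 CPM, CDH1 130, 95.7 and 219 CPM, the 7 epithelial markers together 4996, 3463 and 5931 CPM, and TXNIP, which encodes a binder of thioredoxin, 312, 156 and 127 CPM. Their part in the spread of the antioxidant genes was not tested. In the untreated table the median log2 range of the 9 genes was 0.41 in MCF10A and 0.30 in G12V cells, against 0.27 and 0.29 for all genes.

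**Figure D5:**
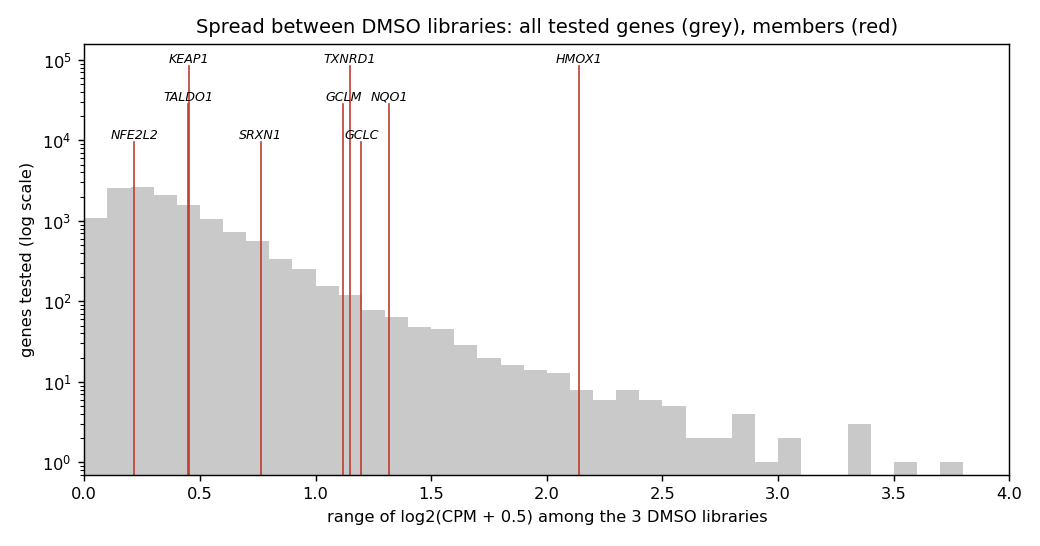
Number of tested genes (y axis, log scale) by the range of log2(CPM + 0.5) among the 3 DMSO libraries (x axis), all genes in grey, with a red line at each of the 9 genes. HMOX1, at 2.14, and NQO1, GCLC, TXNRD1 and GCLM, at 1.12 to 1.32, lie in the right tail, while NFE2L2, at 0.22, lies in the bulk.

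Both tables hold parental MCF10A cells, as untreated libraries and as DMSO libraries. They were counted on different annotations and normalized apart, so their levels are set side by side with no test. The 7 epithelial markers together had 6736 to 8202 CPM untreated and 3463 to 5931 CPM in DMSO. Of these, KRT17 had 1834 and 2297 CPM untreated and 124 to 444 CPM in DMSO. TXNRD1 had 182 to 194 CPM in untreated MCF10A, 436 to 967 CPM in DMSO and 860 to 1156 CPM in G12V cells. NQO1 had 237 to 255, 368 to 919 and 502 to 619 CPM in the same order, GCLM 41.3 to 58.2, 113 to 247 and 108 to 123 CPM, and HMOX1 1.45 to 2.11, 2.28 to 11.7 and 6.58 to 12.1 CPM. For the 4 genes called higher in G12V cells, at least 1 DMSO library was above the lowest G12V library. This held for every other member except SRXN1 as well, and its share over all genes was not computed. All 3 DMSO libraries were above both untreated MCF10A libraries for the 4 called genes and TALDO1. That is 5 of 9 members (55.6%), against 32.1% of the 12071 genes tested in both tables. SRXN1 and GCLC went the other way, with all DMSO libraries below both untreated ones, a direction for which the share of all genes was not computed. SRXN1 had 72.1 to 96.1 CPM untreated and 19.8 to 34.0 CPM in DMSO, where a clone-named gene overlaps it on the same strand (0 to 3 counts). GCLC, whose rows span different coordinates in the tables, had 177 to 261 CPM untreated and 69.1 to 159 CPM in DMSO. The origin of these differences, the annotation included, was not tested.

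In DMSO, per kilobase, NQO1 (241 ± 112 CPM per kb; SD, n = 3), TXNRD1 (202 ± 76.9) and TALDO1 (162 ± 25.8) overlapped at the top, above NFE2L2 (73.4 ± 5.90). KEAP1 (43.2 ± 6.87), GCLM (37.5 ± 13.7) and GCLC (32.0 ± 12.3) overlapped below it, followed by SRXN1 (11.1 ± 2.91) and HMOX1 (4.27 ± 3.07). The order of the genes was the same after Nutlin-3a. Lengths were those of the canonical transcripts. The GCLC row of this experiment starts at 53387262, inside the canonical transcript, which starts at 53362139. The level of GCLC per kilobase and its place in this order are therefore uncertain.

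Over the 10 libraries, with log2 CPM centred within each table, the genes whose levels ran most like NFE2L2 were TBC1D25 (Pearson's r = 0.975), SLC7A2 (0.962) and BIRC2 (0.960), among 12070 genes. Of the members, GCLC (0.668) and KEAP1 (0.564) came nearest, and the others had values from -0.45 to -0.08. These libraries share 2 tables and the deviations of their numbers, so the values only describe likeness.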

How the data were processed

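RNA-seq was read for 10 libraries. The authors selected poly(A) RNA, aligned reads to hg19 with TopHat, and deposited the raw HTSeq counts of each gene as 2 tables on different annotations, without normalization. The annotations, the strand setting and the treatment of overlapping genes are not given in the sources used here.

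The fits, 1 for each comparison and its libraries, used edgeR 4.0.16 (with limma 3.58.1, R 4.3.3): filterByExpr, TMM factors and the quasi-likelihood (QL) F-test. Benjamini-Hochberg adjustment ran over all genes tested. A gene was called when its adjusted p was under 0.05 and its log2 fold change exceeded 0.5 in size. The prior count was 0.125, a standard error is the size of the log2 fold change divided by the root of F, and CPM use TMM-scaled library sizes. Counts bound the precision of each value and cover counting error only.

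The 9 members, the lists, the tests and the alternatives were chosen with earlier results of these data known. Named were all members, every called gene of the pathway list up to 8 per direction by size, HRAS, MDM2, CDKN1A, and the 3 genes most like NFE2L2. ALDH3A1, SQSTM1, TRIM16, SOD2, GPX3, PRDX5, GPX4, the called list genes beyond that rule, KRT17, CDH1, TXNIP and the overlapping genes were named after their values were seen. A called gene of the list is not reported here. Marker lists held breast epithelial, leukocyte, endothelial and fibroblast genes.

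In the Nutlin-3a table, the correlation of deviations from group means was 0.641, 0.649 and 0.676 for libraries of one number and from -0.499 to -0.206 for all other pairs, which pairs them by number. As alternatives, the exact test of edgeR, DESeq2 1.42.0, relative log expression factors, library totals alone, no filter, the replicate number as a block, an unadjusted p under 0.05 with a fold above 1.3, and omission of each library were run. The fits were tested on simulated counts first. Promoter windows came from RefSeq (GRCh38.p14), transcript lengths from GENCODE for GRCh37. Tables and figures were made in Python 3.11.15 (matplotlib 3.10.9, numpy 2.4.6, pandas 2.3.3).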

Additional observations from a re-analysis of the deposited data

How the results depend on the processing

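With 2 libraries per group, a fit without 1 library takes its spread from the other group alone. There, the calls of members, of pathway list genes and over all genes varied with the library left out, down to none without MCF10A replicate 1. With all libraries 4 members and 17 list genes were called. An unadjusted p under 0.05 with a fold above 1.3 called 34 list genes and 6 members. DESeq2 and the exact test called 5 members and 25 list genes each. Over all genes the calls were 1575 with all libraries, 2307 with DESeq2, 2526 with the exact test and 3676 with the unadjusted p. Other normalizations and no filter left the members at 4. The untreated libraries share only a number, and with 2 pairs the correlation of 0.535 between those of one number does not show a pairing. With the replicate block there, 7 members (NFE2L2 at -0.52 and GCLC at -0.76 among them, both lower), 38 list genes and 4158 of all genes were called.

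In the Nutlin-3a comparison 0 members and 0 list genes were called under every alternative, and the block changed no such call. Over all genes it called 165 against 23, DESeq2 91, the exact test 83, no filter 99, the unadjusted p with a fold above 1.3 332, and omission of 1 library 7 to 11. Signs turned where the log2 fold change with all libraries was small. Leaving out each library in turn moved the log2 fold change of KEAP1 in G12V cells from -0.27 to 0.074. After Nutlin-3a it moved KEAP1 from -0.12 to 0.11, HMOX1 from -0.83 to 0.65, NQO1 from -0.22 to 0.56, GCLC from -0.52 to 0.090, GCLM from -0.23 to 0.30, TXNRD1 from -0.30 to 0.32, SRXN1 from -0.25 to 0.14 and TALDO1 from -0.021 to 0.21. With library totals alone GCLM had -0.016. The fits that left out 1 library had no replicate block, so they held the number of that library in 1 group only. Its part in the turned signs was not tested. Of the other values computed for single genes and for wider counts, 313 kept their direction and side of the thresholds, 26 dropped out or fell by over 1.5 times and 20 came in or rose by as much. Depth limits HMOX1 most, with 31 to 271 counts per library.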
